A study of Mus musculus with 8 samples.

Results

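The genes described here are 8 transcription factors of intestinal identity and differentiation, in 4 pairs of relatives: Cdx1 and Cdx2, Hnf4a and Hnf4g, Gata4 and Gata6, and Klf4 and Klf5. They were chosen by name, through probes whose RefSeq accession maps to these symbols, and not by their response. All 8 had a probe, 14 probes in all among 41174 on the array, and all 8 passed the filter on dim probes, among 19255 genes tested. Unless stated, a value is from the brightest probe of the gene.

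The samples were mouse small intestinal organoids, epithelial cultures in Matrigel that contain crypt stem cells together with absorptive and secretory cells. They were grown for 6 days with CHIR99021 at 3 µM, with valproic acid (VPA) at 1 mM, with the pair at these concentrations, or in control medium. CHIR99021 inhibits the kinase GSK3, which otherwise marks beta-catenin for destruction, and VPA inhibits histone deacetylases. Each of the 4 groups was measured in 2 separately established organoid lines, both wild type, on 8 two-colour arrays in all. Cy5 carried the sample and Cy3 the control RNA of the same line, also on the control arrays, and the dyes were not swapped. A ratio away from 0 on a control array is thus a difference between dyes or labellings of control RNA, and each change below is a treated ratio minus a control ratio. All arrays of a line lay on 1 slide, so line and slide cannot be told apart, and 2 arrays per group limit the precision of every value.

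CDX, HNF4 and GATA factors bind enhancers of intestinal genes together and keep the epithelium intestinal, with CDX2 as the factor without which it takes on gastric traits. HNF4A and HNF4G are nuclear receptors that act in large part redundantly in the villus to drive genes of the brush border and of fat absorption. KLF4 is best known from goblet cells and differentiated villus cells, and KLF5 from dividing crypt cells. Cdx1 is known as a target of Wnt signalling in the intestinal crypt.

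Between 60.6% and 64.6% of spots were well above background in Cy5 on each array, and 0 were saturated. All 10 general epithelial markers were well above background on all 8 arrays. Of these 10, 1 fell with CHIR99021, 3 with VPA and 4 with both, where 1 rose. The keratin Krt8 changed by -0.75 with CHIR99021, -0.84 with VPA and -1.02 with both (limma, adjusted p = 0.0446, 0.00928 and 0.00321). With both, the claudin Cldn3 changed by -0.76, the keratin Krt18 by -0.71 and the cadherin Cdh1 by 0.51 (adjusted p = 0.00507, 0.0147 and 0.0172). The summed Cy5 brightness of the 10 epithelial markers was 347064 to 385528 with both compounds, 362826 to 421069 with VPA and 423380 to 442294 with CHIR99021, against 478054 to 511582 in control. In large part this sum rests on Krt8 and Krt18, at mean brightnesses of 103897 and 96978, against 45375 for Krt19, the next brightest. Of 10 mesenchymal markers, 4 were above background on all 8 arrays and 2, Dcn and Lum, on none. Of 11 immune and endothelial markers, 2 were above background on all 8 arrays and 4 on none, namely Pecam1, Cdh5, Kdr and Emcn. The summed Cy5 brightness of the 7 mesenchymal markers tested was 11139 to 13427 with both compounds, 7433 to 9127 with VPA and 8990 to 9877 with CHIR99021, against 7595 to 9996 in control. This sum rests mainly on Acta2, at a mean brightness of 7819, against 748 for Vim, the next brightest. Of the 7 mesenchymal markers, 1 rose, Col1a1, by 0.79 with VPA and by 1.02 with both compounds (limma, adjusted p = 0.0213 and 0.0064). Col1a1 was dim, at a mean Cy5 brightness of 106, and well above background on 4 of 8 arrays. It may thus have passed the filter only through groups where it was high. The part of the epithelial and mesenchymal markers in the results was not tested.

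Hnf4g fell with CHIR99021 and with the combination, Cdx1 fell with VPA and with the combination, and Klf5 fell with the combination. No factor was called higher in any treatment against control, though Cdx2 was above control by 0.26 with CHIR99021 and 0.33 with both, on the log2 scale. A change was called at a Benjamini-Hochberg adjusted p below 0.05 over all 19255 genes, in limma's moderated test on the 8 arrays. With CHIR99021, 1 of 8 factors was called, lower, against 1.06% of all genes (0.109% higher and 0.956% lower). With VPA, 1 of 8 was called, lower, against 10.7% of all genes (6.55% higher and 4.19% lower). With both compounds, 3 of 8 were called, all lower, against 15.5% of all genes (8.43% higher and 7.11% lower). The median change of the 8 factors was -0.19 on the log2 scale with CHIR99021, -0.32 with VPA and -0.37 with both, beside a median of all genes of 0.01, -0.00037 and 0.01. In bulk RNA, fewer cells of a type and less RNA per cell cannot be told apart.

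**Figure D1:**
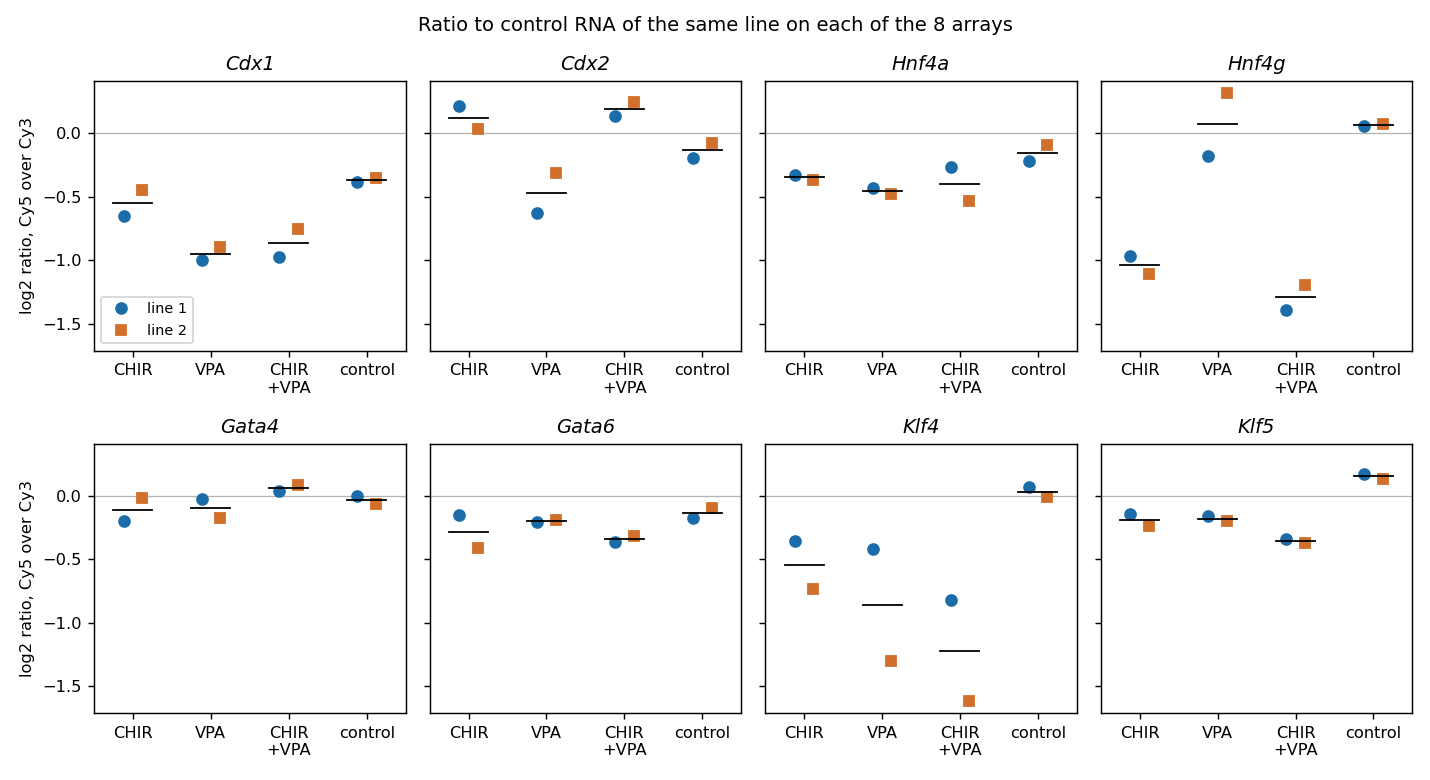
Log2 ratio of Cy5 over Cy3 (vertical axis) of the 8 factors on each of the 8 arrays, by group (horizontal axis; CHIR stands for CHIR99021), with circles for line 1, squares for line 2 and a bar at the mean of 2 lines. Hnf4g lies between -1.39 and -0.97 on the 4 arrays with CHIR99021 and between -0.18 and 0.31 on the other 4; Klf4 is lower in line 2 than in line 1 under each treatment.

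**Figure D2:**
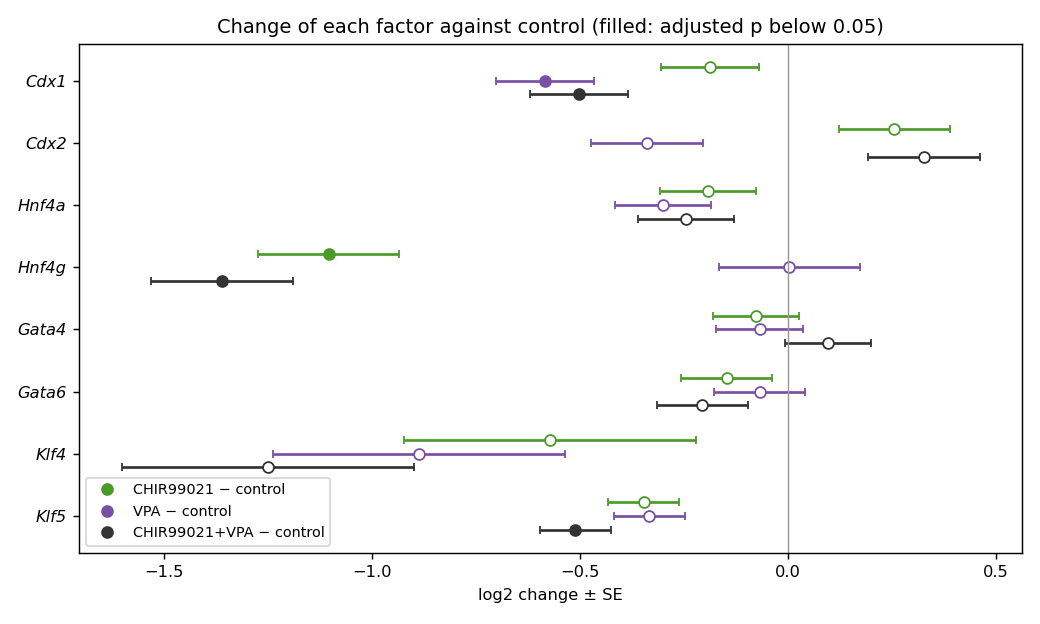
Change of each factor against control on the log2 scale (horizontal axis) with its standard error from the limma fit (bars), for the 3 treatments; filled points passed an adjusted p of 0.05. The filled points are Hnf4g for CHIR99021, Cdx1 for VPA, and Hnf4g, Klf5 and Cdx1 for both compounds.

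Hnf4g encodes hepatocyte nuclear factor 4 gamma, in the mouse intestine a nuclear receptor of villus enterocytes. Its Cy5 brightness, normalised and on a linear scale, was 365 and 274 in lines 1 and 2 under CHIR99021, 639 and 777 under VPA, 282 and 269 under both, and 737 and 654 in control. All 4 arrays with CHIR99021 were thus below all 4 without it. Its log2 ratios were -0.97 and -1.11 with CHIR99021, -0.18 and 0.31 with VPA, -1.39 and -1.19 with both, and 0.05 and 0.07 in control. The change was -1.10 ± 0.17 on the log2 scale (SE, limma, adjusted p = 0.0446) with CHIR99021, a 2.15-fold lower level. With both compounds it was -1.36 ± 0.17 (adjusted p = 0.00419), a 2.57-fold lower level. With VPA alone the change was 0.00 ± 0.17, with a 95% interval from -0.40 to 0.41 (adjusted p = 0.994). The combination was also called lower than VPA alone, by -1.36 ± 0.17 (adjusted p = 0.0260), where 1 of 8 factors was called, against 1.11% of all genes (0.0883% higher and 1.02% lower). That call held in 6 of 18 alternatives, with adjusted p up to 0.311. The combination differed from CHIR99021 alone by -0.26 (95% interval -0.66 to 0.15, adjusted p = 0.415).

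The fall of Hnf4g with the combination was called in all 19 alternatives tried, with values from -1.76 to -0.72, the smallest in size being that of the mean of both probes. Without either control array it passed only narrowly, with values of -1.37 and -1.35. The call with CHIR99021 alone held in 9 of 19 and was lost without either control or either CHIR99021 array, with values of -1.18 to -1.03. With the background model fitted on all spots, the CHIR99021 value was -0.74 (adjusted p = 0.588), and as the mean of both probes it was -0.70. The local Cy5 background of the Hnf4g spot was marked as an outlier on the CHIR99021 array of line 1, and the value was kept.

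A second Hnf4g probe was dim. Its Cy5 signal was well above background on 4 of 4 arrays without CHIR99021 and on 0 of 4 with it. Its normalised brightness was 56.1 and 64.6 with CHIR99021 and 56.9 and 63.7 with both compounds, where it was not well above background, against 77.7 and 89.8 with VPA and 86.5 and 77.0 in control. Its Cy3 reading of control RNA was also lower on some of these arrays, at 81.8 and 72.1 with CHIR99021 and 63.9 and 67.5 with both, against 83.9 and 75.9 with VPA and 87.8 and 80.7 in control, and was well above background on 1 of 8 arrays. On the line 1 arrays of both compounds and of control the local background of this spot was marked an outlier, and the values were kept. As a ratio its change was -0.31 with CHIR99021 (-0.52 and -0.09 in lines 1 and 2), 0.11 with VPA, and -0.08 with both (-0.14 and -0.02). The ratio of this dim probe, near background in both dyes, does not show the fall that the bright probe had with both compounds. Of 41174 probes, 35 (0.085%) had this pattern of detection in Cy5, and 1 had the opposite one.

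Hnf4a encodes the relative of Hnf4g, present along the crypt and villus. Its log2 ratios were -0.33 and -0.37 with CHIR99021, -0.43 and -0.48 with VPA, -0.27 and -0.54 with both, and -0.22 and -0.09 in control. Both lines were lower than their own control in every treatment, by small amounts. The changes were -0.19 ± 0.12 with CHIR99021 (adjusted p = 0.573), -0.30 ± 0.12 with VPA (adjusted p = 0.158) and -0.25 ± 0.12 with both (adjusted p = 0.214), and the lowest bound of the 3 95% intervals was -0.57. The other Hnf4a probes, well above background on all 8 arrays, changed by -0.38 to -0.07 across the 3 treatments.

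The response of the 2 receptors was set side by side as the difference of their log2 ratios on each array. Hnf4g minus Hnf4a averaged -0.79 ± 0.23 (SD, n = 4) on the arrays with CHIR99021 and 0.37 ± 0.28 (SD, n = 4) on those without. These sets of arrays did not overlap, with -1.13 to -0.64 against 0.17 to 0.79. The exact two-sided permutation test gave p = 0.0286, the smallest that 4 against 4 arrays allow, and 0.229 after adjustment over 8 such tests. These tests were chosen with the values of the factors already known, and they set both lines and the other compound together.

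**Figure D3:**
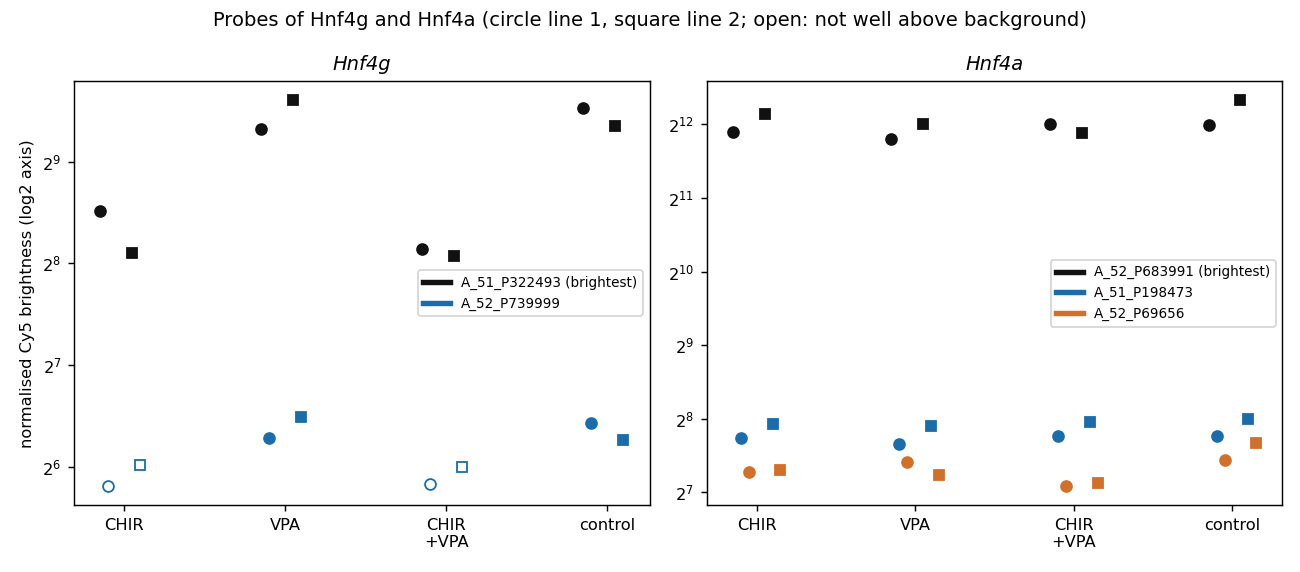
Normalised Cy5 brightness (vertical log2 axis) of the 2 Hnf4g probes and 3 Hnf4a probes in each group (horizontal axis), with circles for line 1, squares for line 2 and open symbols where the spot was not well above background. The second Hnf4g probe is open on the 4 arrays with CHIR99021 only, and no Hnf4a probe separates these arrays from the rest.

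RefSeq promoter sequence (build GRCm38.p6) was at hand for 3 of 8 factors, Hnf4a, Cdx2 and Klf4, and the 250 bases before a start site are shown so that the binding motifs of the factors themselves can be read in them. Capitals mark each match to 5 motifs, searched on both strands. The TCF/LEF motif, of the partners of beta-catenin, was searched as CTTTG, which 48.6% of all 32851 promoters hold in this window. The CDX motif was searched as TTTAT, held by 37.3%. The GATA motif was searched as GATAA, held by 22.6%. The KLF motif was searched as CACCC, held by 52%. The HNF4 motif was searched as CAAAGTCCA, held by 0.384%, and it contains the TCF/LEF letters on the other strand. The upstream of 2 listed starts of Hnf4a (chr2:163506607-163506856, plus strand) has 1 GATA match at -51 and 3 KLF matches, the Cdx2 window (chr5:147307250-147307499, minus strand) has 1 KLF match, and the Klf4 window (chr4:55532476-55532725, minus strand) has 1 CDX match at -165. The TCF/LEF letters are in none of the 3 windows. A match is a run of letters and not a shown binding site.
Hnf4a: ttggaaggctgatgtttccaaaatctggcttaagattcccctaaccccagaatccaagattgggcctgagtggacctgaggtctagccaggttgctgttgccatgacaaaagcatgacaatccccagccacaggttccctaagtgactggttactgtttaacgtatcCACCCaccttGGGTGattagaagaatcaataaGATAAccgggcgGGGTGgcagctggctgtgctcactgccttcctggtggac
Cdx2: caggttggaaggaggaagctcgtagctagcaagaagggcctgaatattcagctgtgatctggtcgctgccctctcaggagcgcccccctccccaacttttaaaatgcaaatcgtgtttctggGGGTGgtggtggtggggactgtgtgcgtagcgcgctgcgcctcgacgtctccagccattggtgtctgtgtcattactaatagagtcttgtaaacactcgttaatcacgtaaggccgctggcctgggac
Klf4: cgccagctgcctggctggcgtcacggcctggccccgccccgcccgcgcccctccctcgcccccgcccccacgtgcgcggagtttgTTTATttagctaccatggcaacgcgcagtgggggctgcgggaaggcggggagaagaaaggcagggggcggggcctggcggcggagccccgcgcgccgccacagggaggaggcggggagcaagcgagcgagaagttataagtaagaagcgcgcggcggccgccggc

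Cdx1 encodes a caudal homeobox factor of the crypt. Its log2 ratios were -0.66 and -0.45 with CHIR99021, -0.999 and -0.90 with VPA, -0.98 and -0.76 with both, and -0.38 and -0.35 in control. All 4 arrays with VPA were below all 4 without it, and the control arrays were themselves below 0. Cdx1 fell by 0.58 on the log2 scale with VPA (SE 0.12, limma, adjusted p = 0.0278), 1.5-fold, and by 0.50 with both compounds (SE 0.12, adjusted p = 0.0331), 1.42-fold. With CHIR99021 alone the change was -0.19 ± 0.12 (95% interval -0.47 to 0.09, adjusted p = 0.593). The combination differed from VPA alone by 0.08 (interval -0.20 to 0.36). The call with VPA held in 12 of 19 alternatives and that with both compounds in 10 of 19. The VPA call was lost without either control or either VPA array, and the other without either control array or the combination array of line 1. Over the alternatives the adjusted p reached 0.339 for VPA and 0.476 for both compounds.

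Cdx2 encodes the caudal factor that sets intestinal fate. Its promoter window is the second of those printed above. Its log2 ratios were 0.21 and 0.03 with CHIR99021, -0.63 and -0.32 with VPA, 0.14 and 0.24 with both, and -0.19 and -0.08 in control. The 4 arrays with CHIR99021 were above the 4 without it, and the VPA arrays were the lowest. Against control the changes were 0.26 ± 0.13 with CHIR99021 (adjusted p = 0.508), -0.34 ± 0.13 with VPA (adjusted p = 0.169) and 0.33 ± 0.13 with both (adjusted p = 0.161), none of which passed the test. The combination exceeded VPA alone by 0.67 ± 0.13 (limma, adjusted p = 0.0861). With the line as a replicate block, this difference passed, at an adjusted p of 0.0472.

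Over the 4 arrays with a compound and the 4 without it, 2 of 8 factors did not overlap for CHIR99021, Hnf4g lower and Cdx2 higher, against 8.98% of all genes (4.01% higher and 4.96% lower). For VPA it was 1 of 8, Cdx1 lower, against 24.2% of all genes (13.5% higher and 10.7% lower). Cdx2 averaged 0.16 ± 0.095 with CHIR99021 and -0.30 ± 0.24 without it, and Cdx1 averaged -0.91 ± 0.11 with VPA and -0.46 ± 0.14 without it (SD, n = 4 each). Hnf4g averaged -1.17 ± 0.18 with CHIR99021 and 0.07 ± 0.20 without it (SD, n = 4 each). Each of these 3 gave p = 0.0286 in the exact two-sided permutation test, the smallest possible, and 0.152 after adjustment over 16 tests. Cdx2 minus Cdx1 averaged 0.87 ± 0.28 on arrays with CHIR99021 and 0.35 ± 0.17 on those without (SD, n = 4 each; exact permutation p = 0.0571, adjusted 0.229).

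Gata4 and Gata6 encode zinc finger factors, of which GATA4 marks the proximal small intestine and GATA6 is present along its length. Gata4 had log2 ratios of -0.20 and -0.02 with CHIR99021, -0.02 and -0.17 with VPA, 0.04 and 0.09 with both, and 0.00 and -0.06 in control. Gata6 had -0.15 and -0.41 with CHIR99021, -0.21 and -0.19 with VPA, -0.36 and -0.32 with both, and -0.17 and -0.09 in control. Neither passed the test in any comparison. The 95% intervals against control ran from -0.32 to 0.34 for Gata4 over the 3 treatments and from -0.47 to 0.19 for Gata6. The Gata4 probe was dim, at 164 to 211 in normalised Cy5 brightness though well above background on all 8 arrays. A second Gata4 probe, spotted 10 times, was above background on 1 array. The other Gata6 probes changed by -0.24 to 0.02 across the 3 treatments.

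Klf4 encodes a zinc finger factor of goblet and villus cells. Its log2 ratios were -0.35 and -0.73 with CHIR99021, -0.42 and -1.30 with VPA, -0.82 and -1.62 with both, and 0.07 and -0.01 in control. All 6 treated arrays were below both control arrays, as they also were for Klf5, Cdx1 and Hnf4a. How many of all genes show this order was not counted, so it is not read as particular to these factors. Line 2 was the lower line of Klf4 in each treatment. Klf4 had a normalised Cy5 brightness of 6873 and 3040 under CHIR99021, 6593 and 2114 under VPA, 5262 and 1736 under both, and 8975 and 5023 in control. The changes were -0.57 ± 0.35 with CHIR99021 (limma, adjusted p = 0.583), -0.89 ± 0.35 with VPA (adjusted p = 0.169) and -1.25 ± 0.35 with both (adjusted p = 0.0581), and none passed. With the line as a replicate block the adjusted p was 0.191 with CHIR99021, 0.0256 with VPA and 0.00619 with both, so the last 2 passed. Over the 19 alternatives, the change with both compounds was called in 6 and ranged from -1.65 to -0.85. Its standard error was 0.35, against 0.17 for Hnf4g.

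Klf5 encodes the relative known from dividing crypt cells. Its log2 ratios were -0.15 and -0.24 with CHIR99021, -0.16 and -0.20 with VPA, -0.34 and -0.38 with both, and 0.18 and 0.13 in control. As for Klf4, Cdx1 and Hnf4a, no treated array reached a control array, an order that was not counted over all genes. The lines were close in every group. Klf5 fell by 0.51 on the log2 scale with both compounds (SE 0.085, limma, adjusted p = 0.0106), 1.42-fold. The changes with CHIR99021, -0.35 ± 0.085 (adjusted p = 0.149), and with VPA, -0.33 ± 0.085 (adjusted p = 0.0549), did not pass. With the replicate block, VPA passed at an adjusted p of 0.0323. The call with both compounds held in 15 of 19 alternatives and was lost without either control array. Klf4 minus Klf5 averaged -0.77 ± 0.47 on arrays with VPA and -0.24 ± 0.18 on those without (SD, n = 4 each; exact permutation p = 0.0857, adjusted 0.229).

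Markers of differentiated cells changed in the same samples. In a goblet list without Klf4, 2 of 13 genes fell with CHIR99021, 7 with VPA and 10 with both, where 1 rose, and the median changes were -0.67, -1.21 and -2.65. Spdef, the transcription factor of goblet cell maturation, changed by -0.40 with CHIR99021, -1.58 with VPA and -2.66 with both (limma, adjusted p = 0.488, 0.00731 and 0.00106). Tff3, a peptide secreted by goblet cells, changed by -0.19, -0.72 and -1.97 in the same order (adjusted p = 0.692, 0.0283 and 0.000963). With both compounds Ern2, a stress sensor of the goblet secretory pathway, changed by -1.56 and Fcgbp, a mucus protein, by -2.39 (adjusted p = 0.000666 and 0.000827). Summed goblet brightness was 84750 to 120273 with CHIR99021, 63204 to 107727 with VPA and 37150 to 49478 with both, against 119846 to 175846 in control. In an enterocyte list, 6 of 18 genes fell with CHIR99021, 3 with VPA and 11 with both, and none rose, with medians of -1.65, -0.32 and -1.39. Slc26a3, an anion exchanger, changed by -1.28 with both (limma, adjusted p = 0.00126), and Treh, Slc6a19 and Apoa1 are described further on. Summed enterocyte brightness was 128391 to 129935 with CHIR99021, 336472 to 381838 with VPA and 93342 to 155081 with both, against 310063 to 318236 in control. The enterocyte sum, like the level of Hnf4g, was lower on the 4 arrays with CHIR99021 than on the other 4. The part of cell makeup in the changes of the factors was not tested.

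Between the combination and CHIR99021 alone, 0 of 8 factors passed the test, where 10% of all genes were called (6.19% higher and 3.82% lower). The largest of these differences were -0.68 ± 0.35 for Klf4 (limma, adjusted p = 0.294) and -0.31 ± 0.12 for Cdx1 (adjusted p = 0.153). The interaction, which is the change with both compounds minus the sum of the single changes, was called for 0 of 8 factors and for 0 of 19255 genes (0%). At an unadjusted p under 0.05, 506 genes passed it. The interaction ranged from -0.26 for Hnf4g to 0.41 for Cdx2, whose 95% intervals were -0.83 to 0.31 and -0.04 to 0.86.

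The control RNA itself gave a level of each factor in each line, read in Cy3 on 4 arrays per line. The labels name the same control RNA of a line for all its arrays, so the readings show labelling and reading error rather than spread between cultures, and no test was made. Klf4 had a geometric mean brightness of 5159 in line 2 (range 5055 to 5327) and 8857 in line 1 (8561 to 9312), a difference of -0.78 on the log2 scale. Cdx1 had 1169 in line 2 (1127 to 1253) and 1823 in line 1 (1770 to 1898), a difference of -0.64. Klf5 had 7624 in line 2 and 10037 in line 1, a difference of -0.40, and Hnf4g had 613 and 721 in the same order, a difference of -0.23. For these 4 factors the readings of the lines did not overlap, and how many of all genes show the same was not counted. Hnf4a and Gata4 were higher in line 2, by 0.22 and 0.21, also with no overlap. Gata6 and Cdx2 differed by 0.09 and -0.06, and their readings overlapped. Klf4, with the widest of these gaps, also had the larger change against its own control in line 2. With CHIR99021 it was -0.72 in line 2 and -0.42 in line 1, with VPA -1.29 and -0.49, and with both -1.61 and -0.89.

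**Figure D4:**
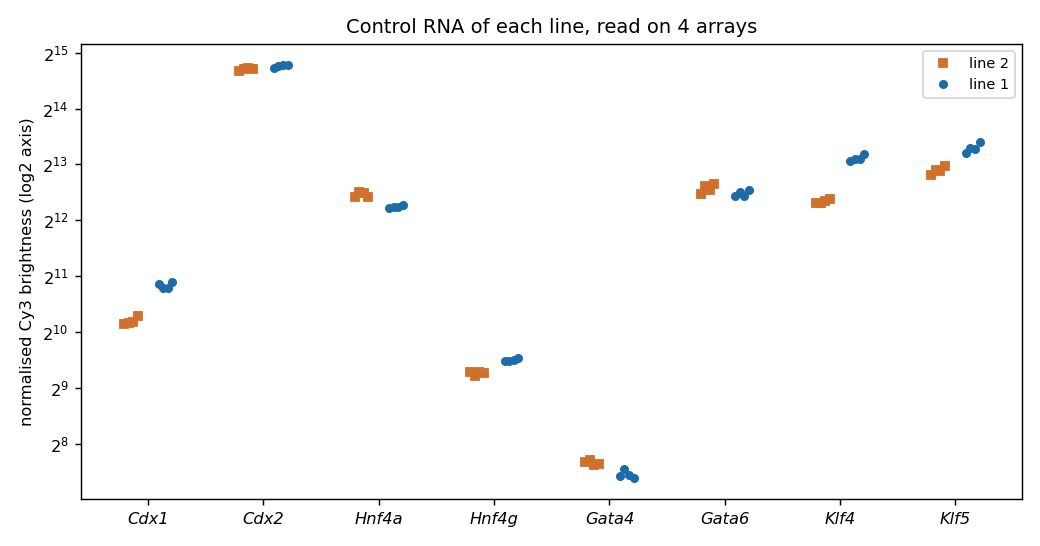
Normalised Cy3 brightness of control RNA (vertical log2 axis) for each factor (horizontal axis), with squares for the 4 readings of line 2 and circles for the 4 readings of line 1. Klf4 and Cdx1 show the widest gaps, -0.78 and -0.64 on the log2 scale for line 2 minus line 1.

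Among products of mature intestinal epithelium known as targets of CDX, HNF4 or GATA factors, most values were below control. Most genes of the enterocyte list above are also in this list, so the counts of these lists are not independent. Of 29 tested, 7 fell and none rose with CHIR99021, 5 fell and 2 rose with VPA, and 18 fell and 1 rose with both, with medians of -1.18, -0.37 and -1.58. Treh, the brush border trehalase, changed by -1.75 with CHIR99021, -0.95 with VPA and -2.44 with both (limma, adjusted p = 0.0131, 0.0102 and 0.000378). Slc6a19, a transporter of neutral amino acids, changed by -2.77, -1.35 and -3.71 in the same order (adjusted p = 0.0143, 0.0238 and 0.000744). Apoa1, an apolipoprotein of chylomicrons and HDL, changed by -2.68, -1.86 and -3.79 (adjusted p = 0.0215, 0.0158 and 0.00124). Cubn, the ileal receptor for vitamin B12 bound to intrinsic factor, rose by 0.93 with VPA (adjusted p = 0.0372) and by 2.98 with both (adjusted p = 0.000751), and was 0.43 with CHIR99021 (adjusted p = 0.458).

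Of 28 other transcription factors and nuclear receptors of the intestine tested, 3 fell with CHIR99021, 3 with VPA and 7 with both, and none rose, with medians of -0.14, -0.12 and -0.23. Nr1i3, the xenobiotic receptor CAR, fell in all 3 treatments, with changes of -1.35, -0.92 and -2.09 (limma, adjusted p = 0.0132, 0.00606 and 0.000351). Creb3l3, a membrane-bound factor of lipid metabolism, fell with CHIR99021 (-2.07) and with both (-1.67) (adjusted p = 0.0215 and 0.00638) and was 0.46 with VPA (adjusted p = 0.279). Ppara, the fatty acid receptor, fell with CHIR99021 (-0.89) and with both (-1.09) (adjusted p = 0.0313 and 0.0028) and was 0.28 with VPA (adjusted p = 0.192). Creb3l3 and Ppara thus passed in the same 2 comparisons with control as Hnf4g. Rxra, the shared partner of many nuclear receptors, fell with VPA (-0.51) and with both (-1.16) (adjusted p = 0.043 and 0.0022) and was -0.69 with CHIR99021 (adjusted p = 0.0585).

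Of 19 further members of the CDX, HNF4, GATA and KLF families and their near relatives tested, 0 passed with CHIR99021 or VPA, and with both Gata5 fell by 0.70 (limma, adjusted p = 0.0403) and Klf12 rose by 0.69 (adjusted p = 0.0283). Of 11 cofactors, Zfpm1, the GATA partner FOG1, rose by 0.51 with VPA (adjusted p = 0.0197) and Nr0b2, the repressor SHP, fell by 0.36 with both (adjusted p = 0.0296). Of 12 genes of the proximal small intestine, none passed with CHIR99021, 1 fell and 2 rose with VPA, and 3 fell and 1 rose with both. With both, Heph, a ferroxidase of iron export, changed by -0.67, Apoc3, an apolipoprotein, by -2.46 and Ada, adenosine deaminase of the duodenum, by 1.30 (adjusted p = 0.00653, 0.0176 and 0.00228). With VPA, the iron importer Slc11a2 changed by 0.68 (adjusted p = 0.0222). Of 10 distal genes, 1 fell with CHIR99021, 2 fell and 2 rose with VPA, and 2 fell and 1 rose with both. Slc51a, a subunit of the ileal bile acid exporter, fell in all 3 treatments, with changes of -1.77, -0.49 and -2.63 (adjusted p = 0.0118, 0.0492 and 0.000253). Its partner subunit Slc51b changed by -1.90 with both, and Amn, the partner of Cubn, by 1.27 with VPA (adjusted p = 0.00398 and 0.0404). Of 6 gastric genes that passed the filter, 0 passed the test with CHIR99021, 1 fell with VPA and 2 fell with both, and 0 rose in any treatment. Gkn3, a gastrokine, changed by -2.20 with VPA and -2.48 with both (adjusted p = 0.00037 and 0.00023), and Tff2, a gastric peptide, by -0.66 with both (adjusted p = 0.0401). Of 9 colonic genes, 0 passed with a single compound and 1 fell with both, the water channel Aqp8, with a change of -2.90 (adjusted p = 0.00609). Of 8 Paneth genes, 0 passed with CHIR99021, and 2 fell with VPA and 3 with both. Their medians were 0.41, -0.57 and -1.32 for CHIR99021, VPA and both, and 6 of 8 were above control with CHIR99021. Defa22, an alpha-defensin whose probe may read its near-identical relatives, had a change of -2.66 with both, the ribonuclease Ang4 -1.69 and the lysozyme Lyz1 -1.24 (adjusted p = 0.00053, 0.00539 and 0.0499). Nupr1 had a change of -1.37 with VPA (adjusted p = 0.00891). Of 11 stem cell genes, none passed with a single compound and 3 rose with both, Tnfrsf19 by 3.67, Rnf43 by 0.85 and Ephb2 by 0.78 (adjusted p = 0.00702, 0.00912 and 0.0223). All 11 were above control with CHIR99021, and the stem medians were 0.38, 0.12 and 0.41 for CHIR99021, VPA and both. Of 14 proliferation genes, 0 passed with CHIR99021, 2 fell with VPA, and 1 fell and 1 rose with both. All 14 were above control with CHIR99021, and the proliferation medians were 0.28, -0.23 and -0.09 for CHIR99021, VPA and both. The kinase Tk1 changed by -0.87 and the cyclin Ccne1 by 0.73 with both, and the cyclin Ccnb1 by -0.56 with VPA (adjusted p = 0.00656, 0.0394 and 0.0351).

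**Figure D5:**
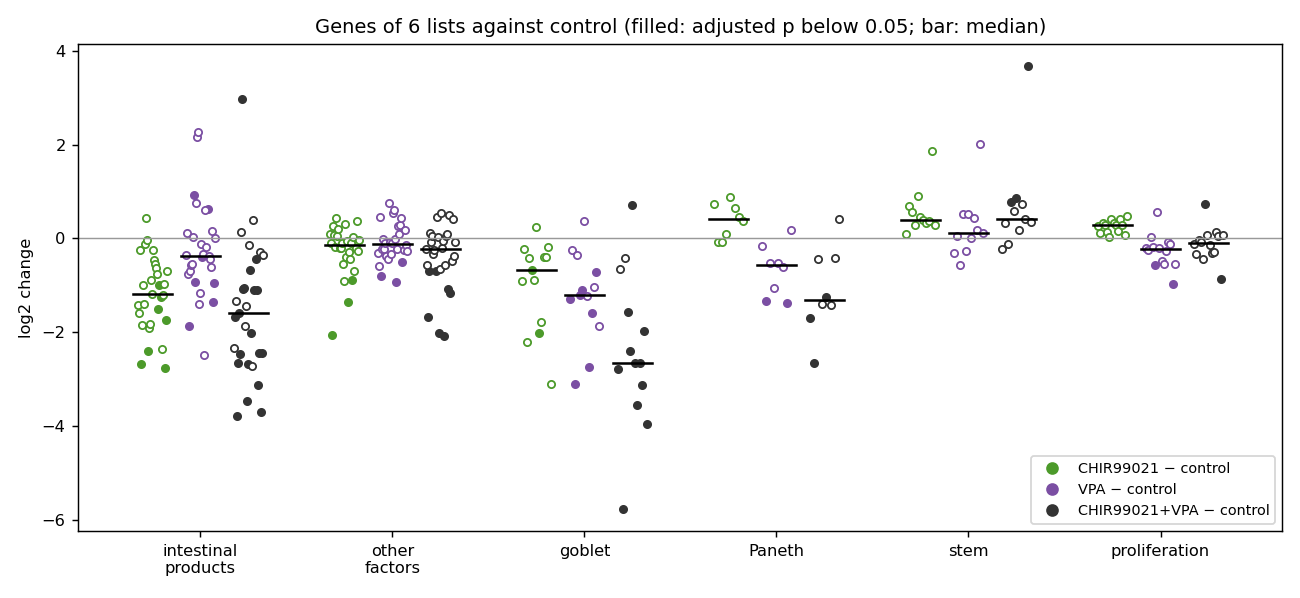
Change against control on the log2 scale (vertical axis) of each tested gene in 6 lists (horizontal axis), for the 3 treatments, with filled points at an adjusted p below 0.05 and a bar at the list's median. Intestinal products have medians of -1.18, -0.37 and -1.58, and other factors have medians of -0.14, -0.12 and -0.23, for CHIR99021, VPA and both.

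For each factor the 2 named genes with the most similar log2 ratios over the 8 arrays were found among 13477, by the root mean square difference. Hnf4g was nearest to Cyp4f16 (0.13) and Slco2a1 (0.17), whose changes against control were -1.12 and -1.06 under CHIR99021, 0.12 and -0.27 under VPA, and -1.31 and -1.32 under both. Cdx1 was nearest to Dcaf15 (0.073) and Cdc42ep4 (0.081), and Cdx2 to Gaa (0.10) and Cdc42bpg (0.13). Gaa had changes of 0.26, -0.26 and 0.28 against control for CHIR99021, VPA and both, so it too was above control with CHIR99021 and below it with VPA alone. Klf4 was nearest to Pla2g10 (0.21) and Apobec2 (0.21), the widest distances of the 8, and Klf5 to Ddn (0.069) and Traf4 (0.079). Hnf4a was nearest to Mdp1 (0.073) and Psme3ip1 (0.075), Gata6 to Tnik (0.029) and Tjp1 (0.054), and Gata4 to Vps8 and F11.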

How the data were processed

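Total RNA was labelled with a two-colour kit and hybridised to Agilent arrays, per the labels' protocols, with Cy5 for the sample and Cy3 for control RNA of the same line. Per the file headers, spots were read with Agilent Feature Extraction 10.5.1.1. The deposited intensity values are the median brightness of each spot and of its surroundings per dye, linear and with no background taken off. The deposited log10 ratios are Cy5 over Cy3 after the software's own background and dye correction, per the file headers. Its flags (0 or 1) mark outliers, saturation and signal well above background. The authors' deposited series table holds log2 values for 19228 spots that equalled that ratio within 5e-10, so scale and direction were settled, with column medians from -0.0284 to 0.0361 and 0 unmatched columns. The file headers give build mm9, and no coordinates are taken from it. The promoter windows are RefSeq's, in GRCm38.p6. Names come from a RefSeq table of GRCm38.p6, which matched 27479 of 41174 probes.

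Of 45018 spots per array, 1639 were controls, kept at weight 0 in loess. In limma 3.58.1 (R 4.3.3), background was corrected with normexp (offset 50), fitted without spots marked as outliers: on all spots, the noise SD of the CHIR99021 array of line 1 was 905 in Cy3 and 192 in Cy5, against at most 3.94 on other arrays. Ratios were loess-normalised and spots of a probe averaged. Normalised brightness is 2 to the power of the corrected log2 signal. A gene stayed in where at least 1 group had its Cy5 signal well above background on both of its arrays, and 79 were dropped for a missing value. The 4 groups were fitted together with no covariate (4 residual and 2.69 prior degrees of freedom). A simulation of CHIR99021 against control drew the 8 arrays independently, with no effect of line or slide. There, 63 of 100 genes changed by 1 on the log2 scale and 91 of 100 changed by 2 were called, with 4 false calls among 19255. These counts need not hold for the real arrays, which share lines and slides. The design named mean signals, and medians were used, as these are in the files.

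Same-numbered samples are the same line, per the labels, and a fit blocking on line was an alternative. The deviations of same-numbered samples correlated at 0.122 to 0.754 over the 6 pairs of groups. Arrays of a line also share the slide and the Cy3 control RNA, so these correlations cannot show by themselves that the cultures are paired. Named for their changes were all 8 factors, the 2 nearest genes of each, and from each list the called genes of smallest adjusted p, at most 4. The factors, lists and tests were chosen with earlier results of these data known. The tests of arrays with against without a compound were added after the values were seen. Replicates are separate lines, with 1 sample of each per group.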

Additional observations from a re-analysis of the deposited data

Results flagged for a closer look

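In 3 cases the lines moved in opposite directions under 1 treatment, and none of these differences between lines was tested, since a line has 1 array per group. Hnf4g with VPA was 0.24 in line 2 and -0.23 in line 1 relative to control on the log2 scale. Gata4 with CHIR99021 was 0.04 in line 2 and -0.2 in line 1. Gata6 with CHIR99021 was -0.32 in line 2 and 0.02 in line 1.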

How the results depend on the processing

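Of the 8 factors, 1 was called with CHIR99021, 1 with VPA, 3 with both, 1 for both against VPA, and 0 for both against CHIR99021 and for the interaction. With CHIR99021 the count was 0 with the background model fitted on all spots, Agilent's own log ratios, median centring, the mean of all probes, a robust variance trend, or Cy5 alone. With VPA it was 0 with median centring, the robust trend or Cy5 alone, 2 with the mean of probes and 3 with the replicate block. With both it was 1 with Cy5 alone and 4 with the replicate block. It was 2 on all spots and with Agilent's ratios, median centring, the compared groups only or the robust trend. With median centring these 2 were Hnf4g and Klf4, while Cdx1 and Klf5 were not called. For both against VPA it was 0 on all spots, with Agilent's ratios, the mean of probes, the compared groups only or Cy5 alone, and 2 with the replicate block. For both against CHIR99021 it was 1, Cdx1, on all spots. With treated ratios tested against 0, a test that keeps dye differences, it was 4 with CHIR99021, 4 with VPA and 6 with both. Of all 19255 genes, that test called 4291 with CHIR99021, 7020 with VPA and 7801 with both. There Tff3 with CHIR99021 turned to 0.37. Leaving out an array gave 0 to 1 with CHIR99021, 0 to 1 with VPA, 1 to 4 with both, 0 to 1 for both against VPA, 0 for both against CHIR99021 and 0 for the interaction. The interaction was not run with the compared groups alone or against 0, nor were the contrasts between treatments run against 0.

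Over all genes, calls with CHIR99021 numbered 205, and 0 on all spots, 36 with Agilent's ratios, 85 with the robust trend, 552 with the block and 1087 with the compared groups. With VPA they numbered 2068, and 1109 with median centring, where 76.7% were higher against 61% in the main fit, and 3732 with the block. With both they numbered 2992, and 4820 with the block. For both against VPA they numbered 214, and 0 with the compared groups and 617 with the block; for both against CHIR99021, 1927, and 288 and 3429. Leaving out an array gave 1 to 271 calls with CHIR99021, 120 to 2479 with VPA, 539 to 3245 with both, 7 to 171 for both against VPA, 289 to 2053 for both against CHIR99021 and 0 to 1 for the interaction. Without control replicate 1 or 2 the calls were 539 and 603 with both, 120 and 125 for VPA, and 1 each for CHIR99021, so the shares of all genes called rest on both control arrays. Apart from the calls named here and in the text, the block changed no call of a factor.

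Hnf4g with both is the only factor call that held in every alternative, though narrowly without either control array. Means of 2 arrays and 4 residual degrees of freedom limit all calls, and dim probes of Hnf4g and Gata4 lie near background.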
